A study of Canis lupus familiaris with 10 samples.

Results

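The SHC adaptor family with its main partners is described here, as 8 genes out of the 23266 gene symbols measured by QuantSeq 3′ RNA-Seq in canine cutaneous histiocytoma (CCH). SHC4 was chosen from the readout, for its lower level in late than in early CCH. SHC1, SHC2 and SHC3 were set beside it as the other members of its family, and GRB2, SOS1, GAB1 and GAB2 as the partner proteins that act with SHC adaptors. The difference of SHC4 between the stages is therefore given as a description without a test, and tests were made on the other 7 genes.

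CCH is a benign skin tumor of dogs that arises from Langerhans cells, the dendritic cells of the epidermis, and regresses spontaneously while lymphocytes enter it. The data comprised 5 early tumors (group 1 of the histological scheme of Cockerell and Slauson) and 5 late tumors (group 3 of that scheme, which the labels describe as enriched in lymphocytes), each from a different dog. Dogs with early tumors were 0.5 to 5 years old, where 4 ages are given, and dogs with late tumors 1.5 to 9 years old. All tissue was formalin-fixed and paraffin-embedded (FFPE), no treatment is given in the labels, and RNA came from whole tumor sections after the adjacent tissue had been cut away, so that tumor cells and infiltrating cells were measured together.

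SHC proteins are adaptors without enzyme activity. They bind phosphorylated tyrosines of activated receptors with a PTB and an SH2 domain, become phosphorylated themselves and then recruit GRB2. GRB2 brings SOS1, an exchange factor that loads Ras with GTP, to the membrane, which starts the MAP kinase cascade, and through the docking proteins GAB1 and GAB2 the same complex reaches PI3 kinase and the phosphatase SHP2. SHC1 is made in nearly all tissues, SHC2 and SHC3 are best known from neurons, and SHC4 (also named ShcD or RaLP) is best known from brain, skeletal muscle and melanoma.

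Values are normalized read counts, which are read counts divided by a size factor of each library. QuantSeq 3′ yields 1 fragment per transcript near its polyadenylated end, so that levels of different genes can be set beside each other without a correction for length, apart from differences in how well each transcript end is annotated. Fold changes are late minus early on the scale of log2(value + 1), written log2FC. A gene was called where limma gave a p of 0.05 or less after Benjamini-Yekutieli (BY) adjustment and the log2FC was 1 or more in size. The stages are compared over 5 libraries each, and library numbers within a stage serve as names only.

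The 10 libraries held between 2973125 and 4439709 reads assigned to genes. Of the 12397 genes tested, 269 (2.17%) were called, of which 138 (1.11%) were lower and 131 (1.06%) higher in late CCH, and for 1483 genes (12%) the values of the stages did not overlap. The number of calls was 55 without early library 5 or late library 2, and it was 77, 86, 66 and 113 without early library 1 or late library 1, 4 or 5. The DV200, the share of long RNA fragments, was 68.5% ± 2.46 in early and 73.2% ± 2.09 in late samples (SD, n = 5 each, exact two-sided permutation p = 0.0238). It could not be linked to single libraries, and its part in any result was not tested. By the study's own list, no extraction batch or index set held tumors of both stages, and these cannot be told apart from the stage.

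In the SHC family, SHC4 and SHC3 were lower in late CCH, whereas the values of SHC1 and SHC2 overlapped between the stages. SHC4 had a normalized read count of 639.7, 482, 521, 592 and 1056 in early libraries 1 to 5. In late libraries 1 to 5 it had 84.5, 74.2, 155, 98.2 and 85.0. Every early library lay above every late library, early library 5 stood highest, and late library 3 was the highest of its stage. The mean level was 658 ± 231 in early and 99.4 ± 32.2 in late CCH (SD, n = 5 each), which is 6.62-fold lower in late CCH. Its log2FC was -2.71 ± 0.24 (SE), the 53rd lowest of the 12397 genes tested. SHC4 was well covered in both stages, with 3501 reads over the early and 500 over the late libraries. In early CCH its level exceeded that of 93.8% of the genes tested, and in late CCH that of 54.1%.

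SHC3, an SHC adaptor known mainly from the nervous system, fell as well. Its normalized read count was 279.9, 162, 195, 258 and 422 in early libraries 1 to 5. It was 56.7, 50.4, 86.2, 41.9 and 87.1 in late libraries 1 to 5. The lowest early value exceeded the highest late value, and early library 5 was again the highest. The mean went from 263 ± 100.4 to 64.5 ± 20.9 (SD, n = 5 each), a 4.09-fold lower level, with 1404 and 323 reads over the early and the late libraries. The log2FC of SHC3 was -1.99 ± 0.29 (SE, 95% CI -2.61 to -1.38) with a BY-adjusted p of 0.0181 from limma. Of the 7 genes tested beside SHC4, SHC3 was the only call (1 of 7), against 2.17% of all genes tested, and the only gene without overlap between the stages, against 12%. The call stood in all 10 fits that changed the pseudocount, the filter, the scaling, the adjustment or the test. It was lost without early library 1 or 5 or late library 1, 2 or 4, where the log2FC lay between -1.96 and -1.80 with an adjusted p between 0.055 and 0.0635 (limma).

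SHC1, the adaptor that nearly all cell types use, was the most abundant of the 8 genes in both stages. Its normalized read count was 883, 1338, 1056, 1674 and 813 in early libraries 1 to 5. In late libraries 1 to 5 it was 1223, 938, 804, 792 and 913. The stages overlapped, with late library 1 above 3 of the early libraries and early library 5 among the lowest of all. The log2FC of SHC1 was -0.27 ± 0.21 (SE, 95% CI -0.71 to 0.18, BY-adjusted p = 1, limma), and the interval does not reach a change of 1 in size.

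SHC2, the other adaptor best known from neurons, was at the lower end of what was measured. It had 20.9, 20.5, 3.62, 8.66 and 33.3 in early libraries 1 to 5 and 4.97, 55.2, 11.6, 19.4 and 33.6 in late libraries 1 to 5. High and low values occurred in both stages. With 90 reads over the early and 126 over the late libraries, its log2FC of 0.41 ± 0.68 had a wide interval (SE, 95% CI -1.06 to 1.88, BY-adjusted p = 1, limma), which does not exclude a change of 1 in size in either direction. SHC2 reached a value of 10 in 3 early and 4 late libraries, while the other 7 genes reached it in all 10 libraries, so that none of the 8 was tested because of only 1 stage.

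**Figure D1:**
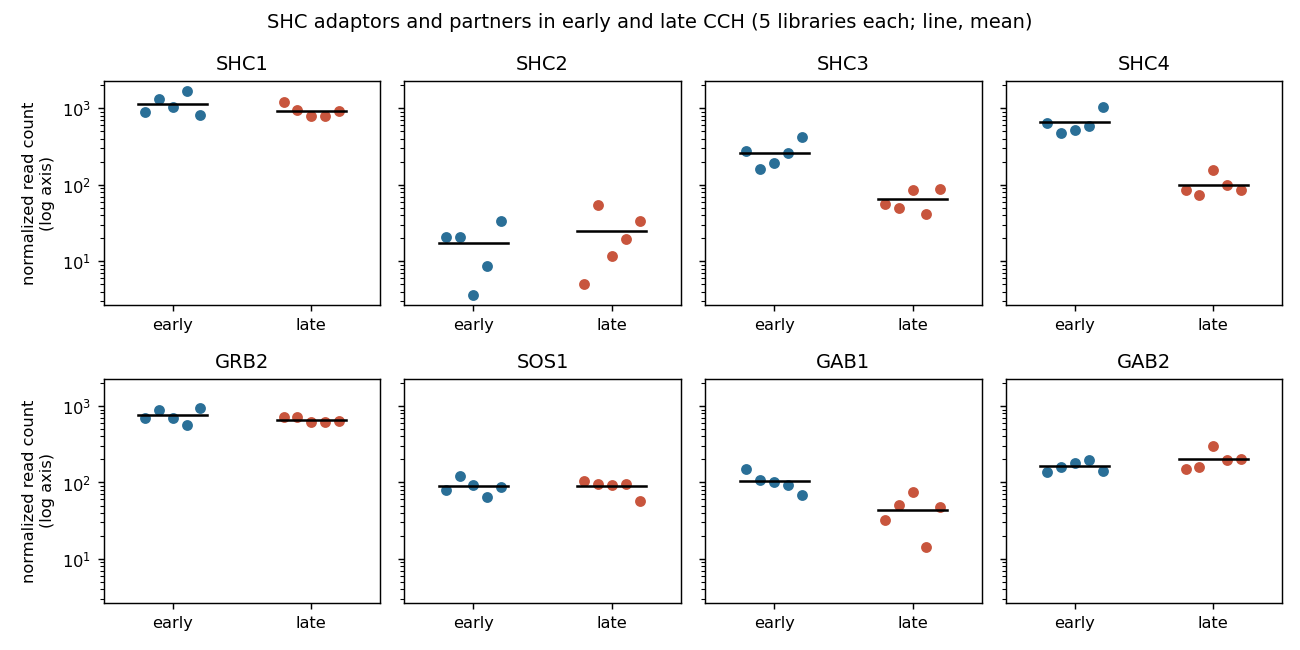
Normalized read counts (log axis) of the 4 SHC genes (upper panels) and of GRB2, SOS1, GAB1 and GAB2 (lower panels) in early (blue) and late (red) CCH. Points are the 5 libraries of a stage and black lines their means. SHC3 and SHC4 show no overlap between the stages, GAB1 overlaps in a single pair of libraries, and the remaining genes overlap widely.

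The summed level of the 4 SHC genes was 2090 ± 327 in early and 1120 ± 154 in late CCH (SD, n = 5 each), without overlap between the stages. SHC4 made up 31.5% ± 9.13 of this sum in early CCH, from 23.4% in early library 4 to 45.5% in early library 5. In late CCH its share was 9.08% ± 3.51, from 6.17% in late library 1 to 14.7% in late library 3. SHC3 contributed 12.6% ± 4.10 in early and 5.80% ± 1.99 in late CCH, and SHC2 0.83% ± 0.532 and 2.29% ± 1.78. SHC1 accounted for 55.2% ± 13.5 of the family in early and 82.8% ± 4.76 in late CCH. In early library 5, and in no other library, there was more SHC4 than SHC1, with 1.30 SHC4 reads per SHC1 read. These sums and shares contain SHC4 and are given as a description.

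**Figure D2:**
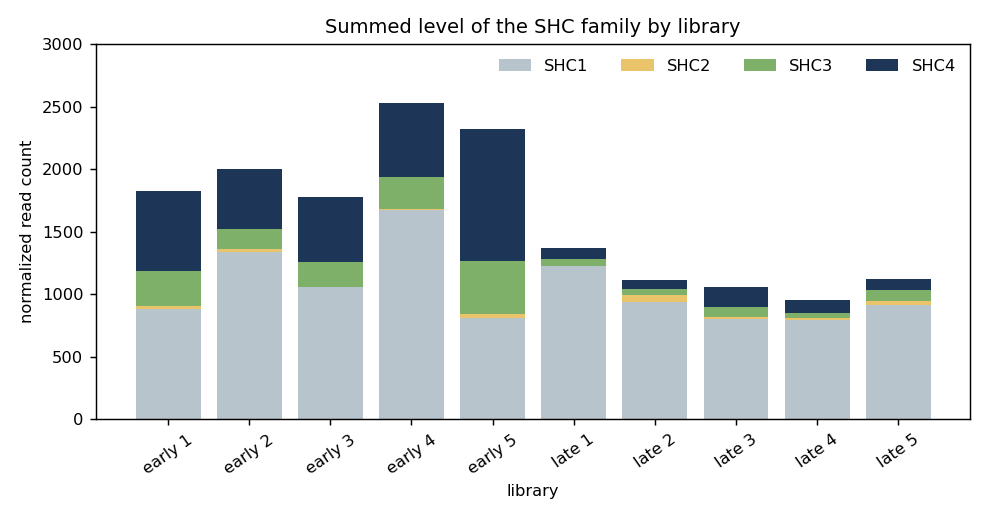
Stacked normalized read counts of SHC1, SHC2, SHC3 and SHC4 in each library. The sum lies between 1776 and 2531 in early and between 952 and 1369 in late CCH, and most of the difference lies in the SHC4 and SHC3 segments.

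The level of SHC3 relative to its relatives is given as the difference of log2 levels within each library. The pairs were chosen after the values had been seen, so that no test is given for them. The log2 level of SHC3 minus that of SHC1 was -2.15 ± 0.85 in early and -3.88 ± 0.55 in late CCH (SD, n = 5 each). The stages differed by -1.73, with 5 of 5 late libraries below every early library. SHC3 minus SHC2 went from 4.08 ± 0.99 to 1.67 ± 1.37, a difference of -2.41 with 4 of 5 late libraries below every early library. The uncertain log2FC of SHC2 (0.41 ± 0.68, SE) enters this difference, and SHC2 had only 4 reads in early library 3 and 5 in late library 1.

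In early CCH, libraries with more SHC4 also had more SHC3. Per SHC4 read there were 0.396 ± 0.0426 SHC3 reads in this stage, from 0.336 to 0.437. In late CCH the ratio was 0.671 ± 0.221, from 0.427 in late library 4 to 1.02 in late library 5, where SHC3 slightly exceeded SHC4. The ratios of the stages overlapped, since early libraries 1 and 4 lay above late library 4. After subtraction of the stage means, the log2 levels of SHC3 and SHC4 had a Pearson r of 0.737 over the 10 libraries. This was the highest among the 28 pairs of the 8 genes, and the lowest was that of SHC1 with SHC4 (r = -0.585). Without early library 5 these 2 values were 0.557 and -0.378. SHC4 then had a higher r with GAB2 (0.71) and a lower r with GRB2 (-0.474), so that neither rank held. The points of such correlations share library, depth and scaling, and no p is given.

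**Figure D3:**
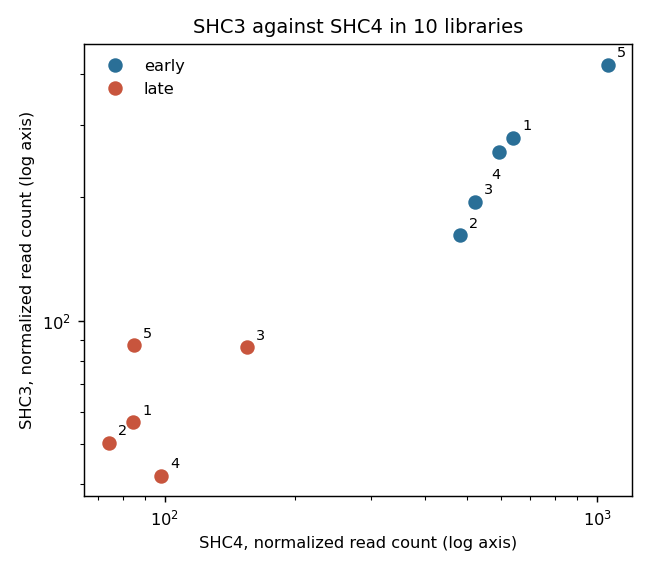
Normalized read counts of SHC3 against SHC4 (both log axes), with 1 point per library and the library number beside it. Early libraries (blue) with more SHC4 also have more SHC3, and all late libraries (red) lie lower on both axes.

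Over all 10 libraries, the genes whose log2 level was most like that of SHC4 were CYP4B1, RAB32, RGS18, IL13RA1 and CRY1, with a Pearson r of 0.996, 0.984, 0.984, 0.983 and 0.981. SHC3 followed as the 18th most similar gene with r = 0.961. CYP4B1 is a cytochrome P450 enzyme, RAB32 a small GTPase of vesicle traffic, RGS18 a regulator of G-protein signaling found in blood cells, IL13RA1 a receptor chain for IL-13 and CRY1 a repressor of the circadian clock. Such an r mostly reflects the difference between the stages. By deviations from the stage means, the most similar genes were ARHGAP25 (r = 0.967), MCTP1 (0.953), CYP4B1 (0.942), ABCA6 (0.899) and DUSP5 (0.894), and without early library 5 these values lay between 0.845 and 0.957. SHC3 was at rank 136 by this measure. Between the stages, ARHGAP25, a GTPase-activating protein of blood cells, and DUSP5, a phosphatase of ERK, had a log2FC of -0.12 and 0.72 (BY-adjusted p = 1 and 0.721, limma). CYP4B1, ABCA6 and MCTP1 were lower in late CCH, with a log2FC of -7.24, -2.87 and -0.89. CYP4B1 was the only gene among the 5 most similar by both measures. Its late values lay between 0 and 2.91, which is 3 reads or fewer, so that its r rests on values at the limit of detection in that stage.

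Among the partners, GRB2 and SOS1, which link SHC to Ras, showed no called change. The normalized read count of GRB2 was 703, 877, 693, 572 and 936 in early libraries 1 to 5. In late libraries 1 to 5 it was 714, 711, 624, 619.7 and 638. The late values lay within the range of the early ones and close to each other. The log2FC of GRB2 was -0.17 ± 0.15 (SE, 95% CI -0.50 to 0.15, BY-adjusted p = 1, limma).

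SOS1 had 80.9, 120.0, 93.2, 63.8 and 87.0 in early libraries 1 to 5 and 105, 96.1, 93.9, 95.1 and 56.7 in late libraries 1 to 5. The other late libraries lay close together and late library 5 was the lowest in either stage. The log2FC of SOS1 was 0.01 ± 0.23 (SE, 95% CI -0.49 to 0.50, BY-adjusted p = 1, limma). Both intervals exclude a change of 1 in size on the log2 scale.

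The docking proteins GAB1 and GAB2 bind GRB2 and carry docking sites for PI3 kinase and SHP2. GAB1 had a normalized read count of 152, 108, 100.4, 92.2 and 68.7 in early libraries 1 to 5. In late libraries 1 to 5 it had 32.8, 50.4, 74.6, 14.3 and 47.2. A single pair of libraries crossed, late library 3 above early library 5. The mean was 104 ± 30.6 in early and 43.9 ± 22.3 in late CCH (SD, n = 5 each), with 568 and 222 reads. The log2FC of GAB1 was -1.36 ± 0.38 (SE, 95% CI -2.20 to -0.53) with an unadjusted p of 0.00371 and a BY-adjusted p of 0.319 from limma, so that it was not called. In the alternative with Benjamini-Hochberg (BH) adjustment, limma gave GAB1 an adjusted p of 0.0319 and it was called. This was the only call (1 of 10) among the fits that changed the pseudocount, the filter, the scaling, the adjustment or the test. With 1 library omitted, GAB1 was called in 0 of 10 fits.

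GAB2 had 135, 160.0, 181, 198 and 139.6 in early libraries 1 to 5 and 152, 161, 299, 198 and 204 in late libraries 1 to 5. Late library 3 was the highest, and the stages overlapped. The log2FC of GAB2 was 0.29 ± 0.20 (SE, 95% CI -0.15 to 0.73, BY-adjusted p = 1, limma). There were 1.67 ± 0.506 GAB2 reads per GAB1 read in early CCH, from 0.888 to 2.15, and 6.01 ± 4.44 in late CCH, from 3.19 to 13.9 (SD, n = 5 each). The ratio of 13.9 was that of late library 4, where GAB1 had 14 reads, and the next highest late ratio was 4.64. The log2 level of GAB1 minus that of GAB2 was lower in late CCH by -1.65, with 5 of 5 late libraries below every early library. This pair was also chosen after its values had been seen and is given without a test.

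Of the 7 genes other than SHC4, 4 had a log2FC below 0, and the median log2FC of the 7 was -0.17, against -0.004 over all genes tested. An unadjusted p of at most 0.05 from limma was reached by 2 of the 7 (SHC3 and GAB1). Over all genes, 3833 of the 12397 tested reached it, so that the 2 genes do not stand out by this count. The summed level of the 4 partners was 1110 ± 138 in early and 997 ± 65.1 in late CCH (SD, n = 5 each), with overlapping values.

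By mean level, the order in early CCH was SHC1, GRB2, SHC4, SHC3, GAB2, GAB1, SOS1 and SHC2. SHC1 was above GRB2 in 4 of 5 early libraries and GRB2 above SHC4 in 3 of 5, so that these neighbors did not differ beyond their spread. SHC4 was 2.50-fold above SHC3 without overlap. SHC3 was above GAB2 in each early library, although their ranges overlapped, and the places of GAB2, GAB1 and SOS1 were not separated in every library. SHC2 was the lowest, 5.11-fold under SOS1. In late CCH the order was SHC1, GRB2, GAB2, SHC4, SOS1, SHC3, GAB1 and SHC2. SHC1, GRB2 and GAB2 were each above the next gene in 5 of 5 late libraries. From SHC4 downwards each neighbor was exceeded in only 3 or 4 of 5 libraries, so that SHC4 and SHC3 had come to lie among the less abundant partners.

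Reads of a gene can be mixed up with those of its neighbors where the annotated ends overlap or, after the extension of genes by 2 kb, come close to each other. Whether counting used the strand is not stated in the sources used here. In RefSeq for the assembly UU_Cfam_GSD_1.0, SHC4 overlaps EID1 and lies beside CEP152 and SECISBP2L. All 3 had a higher mean in late CCH, with log2FC values of 0.29, 0.77 and 0.61 (BY-adjusted p = 1, 1 and 0.319, limma). Beside SHC3 lie S1PR3, a receptor for sphingosine 1-phosphate, and the uncharacterized LOC111098877. S1PR3 had a mean of 8.20 in early and 8.40 in late CCH and did not pass the filter. LOC111098877 went from 71.2 ± 33.3 to 14.5 ± 17.5 (SD, n = 5 each), and its log2FC was -2.58 ± 0.63 (SE, limma, BY-adjusted p = 0.171), and its part in the value of SHC3 was not tested.

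Since whole tumor sections were measured, fewer cells of a type and less RNA per cell cannot be told apart in any of these values. The tumor cell type itself was represented by Langerhans and dendritic cell markers. The summed level of 8 of the 9 markers listed (CD207 was not analysed here) was 2890 to 4470 in early and 1660 to 2330 in late CCH. All 8 had a log2FC below 0, and FCER1A and FLT3 were called lower. CD86 made up a large part of this sum, with 2171 ± 334 in early and 1237 ± 137 in late CCH, and CD1A8 was at 0 in at least 1 late library. The 11 T-cell markers summed to 83.8 to 2560 in early and 3900 to 6590 in late CCH, all 11 had a log2FC above 0, and CD6 was called higher. B-cell markers ranged from 479 to 721 and from 599 to 3150, and macrophage markers from 1130 to 8870 and from 5020 to 9980. Of the 6 B-cell markers, 5 had a log2FC above 0, as had 6 of the 7 macrophage markers, and none was called. CD79A, CD79B, MS4A1 and the macrophage marker MSR1 were higher without overlap between the stages (log2FC 2.16, 4.67, 3.62 and 2.25), while the other B-cell and macrophage markers overlapped. The T-cell markers were also higher without overlap, except CD8A and CD4. CD1A8, FCER1A, FLT3 and CD86 were lower without overlap, while CD1E, ITGAX, CDH1 and EPCAM overlapped. Of all genes tested, 12% were without overlap. The early B-cell sum was mostly CD22 (480 ± 86.8, SD), which had a log2FC of -0.28, and the macrophage marker MRC1 had -0.88. The part of these shifts in the falls of SHC4 and SHC3 was not tested.

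Markers of melanocytes, Schwann cells and skeletal muscle were summed as well, while no list of neuronal markers was made. Of the 7 melanocyte markers, MLANA, PMEL, TYR, TYRP1, DCT and SOX10 had 3 to 15 reads each over all 10 libraries, and the sum of the list (80.5 to 288 in early and 199 to 467 in late CCH) consisted almost entirely of MITF, which other cells also express. The 6 Schwann cell markers measured summed to 21.5 to 67.7 in early and 19.4 to 34.8 in late CCH. The 6 skeletal muscle markers measured summed to 0 to 30.8 and 0 to 22.3, with MYH2 and MYOG at 0 in all 10 libraries. Keratinocyte markers (872 to 15600 in early, 636 to 7660 in late CCH) and fibroblast markers (7610 to 60400 and 10500 to 35600) varied widely with overlap, as did endothelial markers (497 to 836 and 545 to 1120), and no marker of these 3 lists was called. All 7 keratinocyte and all 6 fibroblast markers had a log2FC below 0, as had 2 of 5 endothelial markers. The keratinocyte marker TP63 went from 93.0 to 40.4 without overlap between the stages (log2FC -1.42), and the part of these shifts in the falls of SHC4 and SHC3 was not tested.

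The genes that act above and below the adaptors were taken from 4 lists with 86 genes, of which 84 were in the table and 73 were tested. Of these, 10 (13.7%) were called, 6 lower and 4 higher in late CCH, against 2.17% of all genes tested. The values of the stages did not overlap for 18 of the 73, against 12% of all genes. The median log2FC of the 73 genes was -0.08, close to that of all genes. The lists were written with results of these data known. The number of calls was 1 without early library 5 or late library 2, 2 without early library 1 or late library 4, 4 without late library 1 and 3 without late library 5.

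Among the receptors whose phosphotyrosines recruit SHC or GRB2, 18 of 24 were tested, 1 was lower and 1 higher in late CCH, and the median log2FC was -0.01. FLT3, the receptor for a growth factor of dendritic cells and their precursors, fell from 292 ± 149 to 40.6 ± 27.8 (SD, n = 5 each), and its log2FC was -2.89 ± 0.50 (SE, limma, BY-adjusted p = 0.0434). It is also on the Langerhans and dendritic cell list. FGFR1, a receptor for fibroblast growth factors, rose from 141 ± 76.7 to 589 ± 210.4, and its log2FC was 2.15 ± 0.36 (SE, limma, adjusted p = 0.0356). Values of neither receptor overlapped between the stages. Each kept its call in 3 of the 10 fits with 1 library omitted. Unlike FGFR1, FGFR2 and FGFR3 were lower in late CCH without overlap, from 22.8 to 7.90 and from 64.0 to 31.4. Their log2FC was -1.87 and -1.07, and they were not called (BY-adjusted p = 0.786 and 0.173, limma). FGFR4 did not pass the filter. CSF1R, the receptor of macrophage colony-stimulating factor, had the high level of 1512 ± 484 in early and 1172 ± 368 in late CCH and was not called (log2FC -0.36, adjusted p = 1, limma). The GDNF receptor RET did not pass the filter.

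Of the 25 other adaptors and docking proteins, 20 were tested, 2 were lower and none was higher in late CCH, and the median log2FC was -0.22. IRS1, the docking protein of the insulin and IGF1 receptors, fell from 103 ± 37.1 to 25.1 ± 9.50 (SD, n = 5 each), and its log2FC was -2.01 ± 0.32 (SE, limma, BY-adjusted p = 0.0276). SH2B3, an adaptor also named LNK that restrains cytokine receptor signaling, fell from 327 ± 51.5 to 127 ± 43.1, and its log2FC was -1.40 ± 0.22 (SE, limma, adjusted p = 0.0288). With 1 library omitted, the calls stood in 4 and 2 of 10 fits. GRAP2, a GRB2 relative of T cells, reached 2.44 ± 0.62 (SE), the top log2FC of the list, and was not called (adjusted p = 0.204, limma).

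Ras proteins and the factors that load or unload them contributed 16 tested genes of 18, with 1 lower, 1 higher and a median log2FC of 0.28. RASGRP4, an exchange factor for Ras known from mast cells and other myeloid cells, fell from 147 ± 38.6 to 44.7 ± 10.7 (SD, n = 5 each), and its log2FC was -1.69 ± 0.24 (SE, limma, BY-adjusted p = 0.0176). RASAL3, a Ras GTPase-activating protein of blood cells, rose from 40.8 ± 16.0 to 151 ± 34.3, and its log2FC was 1.91 ± 0.30 (SE, limma, adjusted p = 0.0256). With 1 library omitted, they were called in 7 and 4 of 10 fits. RASGRP1, the related exchange factor of T cells, reached 2.24 ± 0.46 (SE), the top log2FC among these genes, and was not called (adjusted p = 0.084, limma). SOS2, the close relative of SOS1, had a log2FC of 0.17 ± 0.17 (SE, adjusted p = 1, limma), so that neither SOS gene was called.

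All 19 kinases, phosphatases and lipases bound by or acting below the adaptors were tested, 2 were lower and 2 higher in late CCH, and the median log2FC was -0.19. PIK3R2, a regulatory subunit of PI3 kinase, fell from 177 ± 39.0 to 38.0 ± 9.63 (SD, n = 5 each), and its log2FC was -2.20 ± 0.23 (SE, limma, BY-adjusted p = 0.00535). Of the 10 pathway genes called, it alone stood in all 10 fits with 1 library omitted. PIK3CD, the catalytic PI3 kinase subunit of white blood cells, rose from 312 ± 49.8 to 641 ± 148, and its log2FC was 1.02 ± 0.18 (SE, limma, adjusted p = 0.0436), just beyond the threshold on fold change. MAP2K1, the kinase directly above ERK, fell from 358 ± 41.1 to 162 ± 33.3, and its log2FC was -1.15 ± 0.17 (SE, limma, adjusted p = 0.0219). PLCG1, a phospholipase C that T-cell and growth factor receptors activate, rose from 83.9 ± 34.4 to 268 ± 74.8, and its log2FC was 1.71 ± 0.28 (SE, limma, adjusted p = 0.0363). PIK3CD, MAP2K1 and PLCG1 stood in 1, 6 and 2 of these 10 fits. PTPN11, which encodes the phosphatase SHP2 that GAB proteins recruit, had 194 ± 28.0 and 181 ± 21.1 and was not called (adjusted p = 1, limma).

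**Figure D4:**
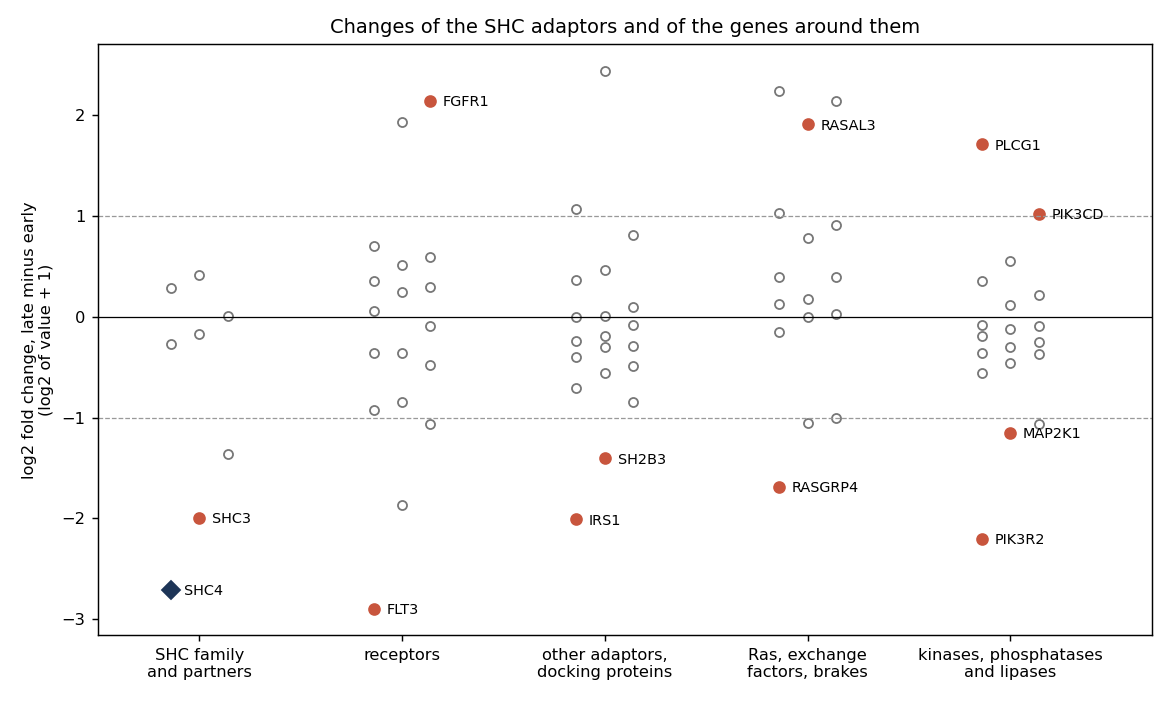
Log2FC (late minus early, log2 of value + 1) of the 8 SHC family and partner genes and of the 73 tested pathway genes in 4 lists. Each point is a gene, filled red points are called and named, open points are not called, the blue diamond is SHC4, shown without a test, and dashed lines mark the fold change threshold of 1. SHC4 and SHC3 lie under all open points of their column, and calls in the other lists occur in both directions, except among the other adaptors, where both lie below 0.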

How the data were processed

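According to the authors' methods, reads were trimmed with Cutadapt, aligned with STAR to CanFam3.1 and counted on RefSeq genes with featureCounts, and unassigned reads were counted again on genes extended by 2 kb at their 3′ end. By these methods, reads with several places counted in equal parts, which gives fractions. Tool versions are not given in the sources used here. The deposited signal is a normalized read count, obtained by the authors with DESeq2 by dividing the reads of a library by its size factor. All values above 0 in the 10 columns used (166096, 100%) were whole multiples of 1 read within 0.01, so that any fractions had been rounded before scaling. These whole numbers were used as the reads per gene, and the other 11 columns of values match no sample and were not used. Column names show the stage, not the sample.

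The filter kept genes that reached a value of 10 in 5 or more libraries, and these were tested with limma 3.58.1 (R 4.3.3, mean-variance trend, log2(value + 1), no covariates) and BY adjustment over all 12397 genes. Calls needed a limma p, after adjustment, of 0.05 or less and a log2FC of 1 or more in size. The study used BY and these thresholds with DESeq2. Alternatives were other pseudocounts, filters and scalings, BH adjustment, edgeR 4.0.16 and DESeq2 1.42.0 on the recovered reads, and the omission of each library. DV200 was compared over the 252 assignments of samples in an exact permutation test. The limma, edgeR and DESeq2 tests were tested on simulated data with known changes, without differences in batch or RNA quality. The permutation test was not part of this. Depth of 2973125 to 4439709 reads limits the precision of genes with few reads. Without molecular identifiers, reads need not stem from separate molecules.

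The 8 genes, the pathway lists and the marker lists were chosen with earlier results of these data known. Named were all 8 genes, the 5 genes most like SHC4 by each measure (symbols starting with LOC left out), neighbors of SHC genes, and from each pathway list the calls and the highest and lowest log2FC. CSF1R, RET, FGFR2, FGFR3, FGFR4, SOS2, PTPN11 and single markers were named in addition, after their values were seen. All 8 genes matched the RefSeq table of UU_Cfam_GSD_1.0, which was used for neighbors only, since its assembly differs from that of the files.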

Additional observations from a re-analysis of the deposited data

Results flagged for a closer look

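In 42 groups of 5 libraries (the 8 genes, the 10 pathway genes called and 3 family measures, each in early and late CCH), a library was singled out when its gap to the next one took more than 0.71 of the whole range (Dixon's test at 95%). This was so in 3 groups, and about 2.1 are expected by chance. SHC4 in early CCH had a relative gap of 0.725, with 1056 in early library 5 and 639.7 in the next library. Without early library 5 the log2FC of SHC4 was -2.52, the smallest in size of its alternatives. SOS1 in late CCH had a relative gap of 0.765, with 56.7 in late library 5 and 93.9 in the next library. RASAL3 in late CCH had a relative gap of 0.715, with 92.0 in late library 3 and 154 in the next library. The causes were not tested.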

How the results depend on the processing

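No paired analysis was possible because column names give no replicate number, and each tumor is of another dog. With BH adjustment, 1121 genes passed, with 685 higher and 436 lower in late CCH, among them 2 of the 7 genes beside SHC4 (SHC3 and GAB1) and 19 pathway genes. The edgeR quasi-likelihood test called 177 genes, 81 of them higher, and the DESeq2 Wald test 810 genes, 480 higher and 330 lower, with 17 pathway genes. BH is the less strict adjustment by construction, and the cause of the other changes was not tested. When 1 library was left out, between 55 and 263 genes were called, between 19 and 144 higher and between 35 and 153 lower, with between 0 and 1 of the 7 genes and between 1 and 9 pathway genes. Scaling to column totals made 64% of the calls higher in late CCH (48.7% as deposited).

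The log2FC of SHC4 lay between -2.88 and -2.52 and that of SHC3 between -2.15 and -1.80 over 20 alternatives. The log2FC values of SHC1, GRB2, GAB1 and GAB2 kept their direction in all 20. SHC2 ranged from -0.011 (without early library 3) to 0.84 and SOS1 from -0.10 to 0.16 when 1 library was left out, and SOS1 was below 0 in 6 of these 10 fits. SHC2 had no value with the filter on a mean of at least 50. The 3 differences between pairs of genes kept their direction under 2 other pseudocounts and the omission of each library, and the DV200 difference lay between 3.71 and 5.38 percentage points. These last alternatives were chosen after seeing the data.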
